A study of Mus musculus with 3 samples.

Results

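Hnf4a, Hnf4g and Maf are 3 transcription factor genes of the mouse, and their signals were followed in cultured kidney cells. The members were found by gene name in the array files: 9 of the 41174 non-control probes of the array carried 1 of these names, 3 for Hnf4a, 2 for Hnf4g and 4 for Maf. They make up 3 of the 19862 genes that could be named. The cells were mPTECs, primary kidney cells of male mice aged 1 month, of an unstated strain and genotype. The groups were freshly isolated cells (day 0) and cells kept for 1 or 3 days on culture dishes, with 1 array each. The medium of the cultured cells was DMEM/F12 with insulin-transferrin-selenium, non-essential amino acids, 0.1 µM hydrocortisone, antibiotics and 1% serum, and the dish therefore comes together with its medium. With 1 array per day there were no replicates, no test between days and no error between samples, so every ratio below describes these 3 arrays.

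Hnf4a and Hnf4g are nuclear receptors that bind DNA mainly as dimers, on a repeated hexamer with a short spacer. Hnf4a keeps liver cells differentiated and in the kidney is found in the proximal tubule, where it is needed in mice for the tubule cells to mature. Hnf4g is its close relative in gut and kidney. Maf (c-Maf) is a large Maf protein, a leucine zipper factor with its own activation domain, known for its work in the lens, in T cells and in macrophages, and also present in the proximal tubule. The small Maf proteins lack the activation domain and act with partners of the Nrf and Bach families.

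The probes are shown because those of 1 gene gave ratios of different size, and a probe reads only the piece of transcript that it lies on. Positions on mm9 were taken from the array files. Within each gene the probes are numbered in the direction of transcription, with all Hnf4a and Hnf4g probes on the plus strand and all Maf probes on the minus strand. Each was a 60-base oligonucleotide on 1 spot. The first 30 bases of each are printed 5′ to 3′, or all 60 for Hnf4a probe 1, whose sequence codes for part of the zinc finger DNA-binding domain. Capitals mark the hexamer AATAAA, the usual polyadenylation signal, where the printed bases hold it.
Hnf4a probe 1, chr2:163378302-163378361: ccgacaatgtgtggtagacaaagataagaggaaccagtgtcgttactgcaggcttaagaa
Hnf4a probe 2, chr2:163396065-163396124: ctggactcctctcaagttgaagtcatcgtc
Hnf4a probe 3, chr2:163398074-163398133: tattacagtacagggaacatggAATAAAgg
Hnf4g probe 1, chr3:3657177-3657236: gatggggcttccttctgaatagcactgcat
Hnf4g probe 2, chr3:3659700-3659759: gagtagctttttaaatgttaaatatagtta
Maf probe 1, chr8:118231607-118231666: tcggcctctccccccaacccttttgctctc
Maf probe 2, chr8:118229204-118229263: acaagggccaaagatctgagcagcatactt
Maf probe 3, chr8:118227736-118227795: tgggtatgtgtagttcttgctataccatgg
Maf probe 4, chr8:118207168-118207226: cctgaaaactgaggttggtatagcttatgg

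Hnf4a probes 2 and 3 lie 17.8 kb and 19.8 kb downstream of probe 1 in the genome. In the transcript named by the array files the Hnf4a probes start at bases 413, 1779 and 3788. Maf probes 2 and 3 start at bases 1531 and 2999 of 1 transcript. Maf probe 1 lies 2.40 kb upstream of probe 2. Maf probe 4 lies 24.4 kb downstream of probe 1 in the genome. The array files place probes 1 and 4 on other transcript models, 1 each. Exon and UTR borders on mm9 were not used here, so no probe is assigned to one.

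Signals are given as a percentage of the 75th percentile of their array, the authors' own scale, and ratios as log2 of such values. The error behind each ratio is that of the 2 spots as the scanner software estimated it. It covers measurement on the array and not the spread between cultures. Among probes with at least 5 repeated spots, the median spread of a ratio between spots was 0.21 on the log2 scale. Since each sample is a bulk of cells, fewer cells of a type and less RNA per cell cannot be told apart.

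Hnf4a was lower after the first day on the dish, by over 8-fold at 2 of its 3 probes. Hnf4a probe 3 had 1233%, 139% and 117% of the 75th percentile on days 0, 1 and 3. It was 8.87-fold lower on day 1 than on day 0 (log2 ratio -3.15 ± 0.20) and 10.6-fold lower on day 3 than on day 0 (-3.40 ± 0.20). Day 0 was high on its own, and the later days lay close together, at a day 3 over day 1 ratio of -0.25 ± 0.20.

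Hnf4a probe 1 showed the same order of days. It had 30.1%, 3.01% and 2.0% of the 75th percentile on days 0, 1 and 3. The ratio was -3.32 ± 0.23 for day 1 over day 0, a 10.02-fold difference, and -3.91 ± 0.25 for day 3 over day 0, a 15.1-fold difference. Its day 3 over day 1 ratio was -0.59 ± 0.26, so the day 3 signal was the lowest of the 3.

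Hnf4a probe 2 stood apart. It had 53.2%, 28.7% and 29.0% of the 75th percentile on days 0, 1 and 3, which is 1.85-fold lower on day 1 than on day 0 (-0.89 ± 0.20) and 1.83-fold lower on day 3 than on day 0 (-0.87 ± 0.20). Days 1 and 3 could not be ordered by this probe, with a ratio of 0.02 ± 0.20. All 3 Hnf4a probes were thus lowest after day 0, but the size ranged from under 2-fold at probe 2 to over 8-fold at probes 1 and 3. Their mean ratio was -2.45 ± 1.36 (SD over the 3 probes) for day 1 over day 0 and -2.73 ± 1.63 for day 3 over day 0.

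Hnf4g followed another time course. Hnf4g probe 1 had 39.4%, 34.4% and 14.8% of the 75th percentile on days 0, 1 and 3. Day 1 lay within the error of day 0, at -0.19 ± 0.20, and its sign turned to 0.02 when the arrays were centred on their medians. Day 3 was the low one, 2.66-fold under day 0 (-1.41 ± 0.21) and 2.32-fold under day 1 (-1.22 ± 0.21). Hnf4g was the only member with a probe at least 2-fold lower on day 3 than on day 1, though Maf probe 4 came near, at 1.97-fold lower. Over other settings this Hnf4g ratio lay between -1.22 and -0.91, so it fell short of 2-fold in some. Hnf4g probe 2 was not well above background on any of the 3 arrays, so Hnf4g rests on 1 probe.

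Maf was lower on days 1 and 3 at every one of its 4 probes, and again the sizes differed. Maf probe 3 had 2054%, 73.2% and 61.7% of the 75th percentile on days 0, 1 and 3. This was 28.1-fold lower on day 1 than on day 0 (-4.81 ± 0.20) and 33.3-fold lower on day 3 than on day 0 (-5.06 ± 0.20), the largest ratios of the 8 measured probes. Maf probe 2, on the same transcript, had 52.1%, 3.85% and 3.19%, and was 13.5-fold lower on day 1 than on day 0 (-3.76 ± 0.22) and 16.4-fold lower on day 3 than on day 0 (-4.03 ± 0.22).

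The distant Maf probe 4 showed a difference of like size. It had 41.6%, 4.47% and 2.27% on days 0, 1 and 3, with ratios of -3.22 ± 0.22 for day 1 over day 0 and -4.20 ± 0.24 for day 3 over day 0. It was the Maf probe with the lowest day 3 over day 1 ratio, -0.98 ± 0.25, against values between -0.27 and 0.18 at the other 3. Maf probe 1, the most upstream, had 984%, 280% and 318%, which is 3.51-fold lower on day 1 than on day 0 (-1.81 ± 0.20) and 3.09-fold lower on day 3 than on day 0 (-1.63 ± 0.20). Its days 1 and 3 were within the error of each other. The mean over the 4 Maf probes was -3.40 ± 1.25 (SD) for day 1 over day 0 and -3.73 ± 1.47 for day 3 over day 0.

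**Figure D1:**
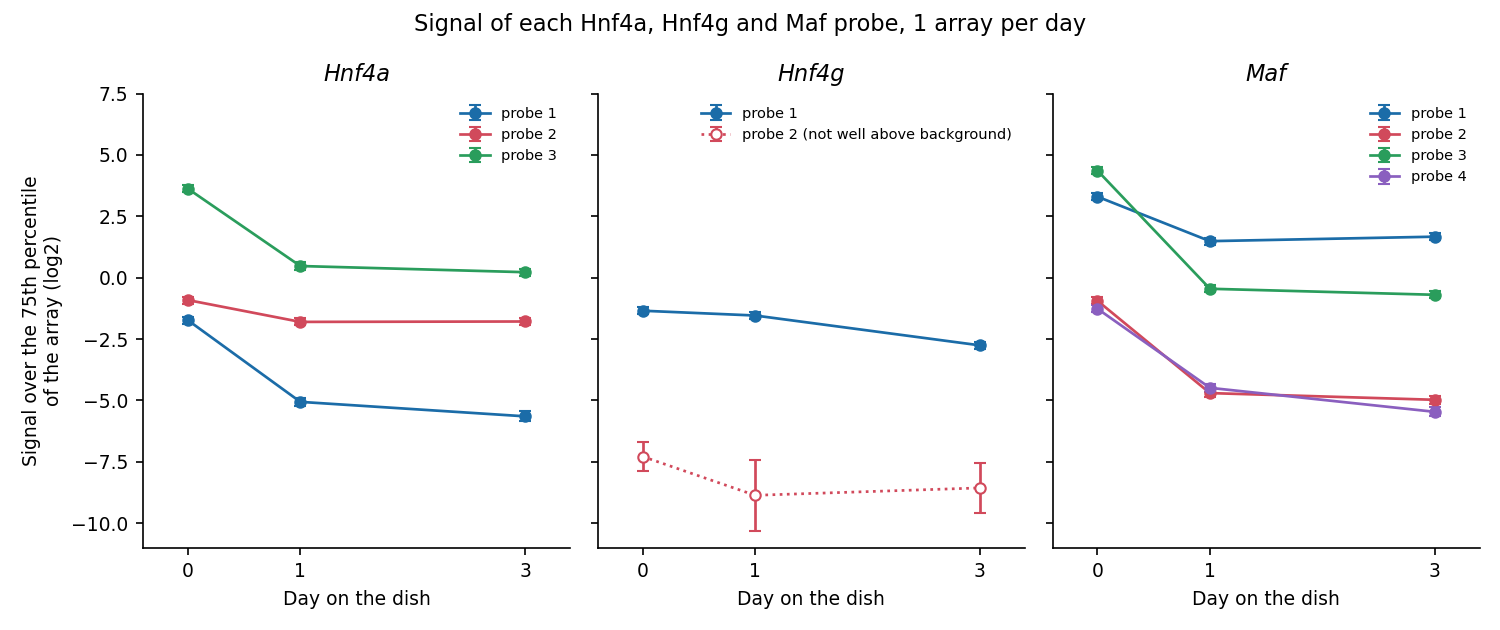
Log2 signal of each Hnf4a, Hnf4g and Maf probe relative to its array's 75th percentile against the day on the dish, with 1 point per array. Hnf4a probes 1 and 3 and Maf probes 2, 3 and 4 lie lower on day 1 than on day 0 and differ little between days 1 and 3, Maf probe 4 excepted, Hnf4g probe 1 is lowest on day 3, and open points mark Hnf4g probe 2, which was not well above background.

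Of the 8 probes with a signal, 6 were at least 2-fold lower on day 1 than on day 0, a mark that 15.7% of all measured probes reached, and 5 were at least 4-fold lower, against 4.52% of all probes. For day 3 over day 0 these counts were 7, against 23.6% of all probes, and 5, against 7.96%. Both comparisons use the day 0 array, so they are not independent of each other. Between days 1 and 3, 1 of the 8 was at least 2-fold lower, against 8.98% of all probes, and 0 of the 8 were 4-fold lower, against 1.18%. The median ratio of the 8 was -3.18 for day 1 over day 0, -3.66 for day 3 over day 0 and -0.26 for day 3 over day 1, beside medians of -0.14, -0.18 and -0.07 over all probes. None of the 8 was 2-fold higher in any comparison. The 8 probes come from 3 genes and are not independent of each other. At the probe with the highest mean signal, the day 1 over day 0 ratio was -3.15 for Hnf4a, -0.19 for Hnf4g and -1.81 for Maf. For day 3 over day 0 these were -3.40, -1.41 and -1.63.

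**Figure D2:**
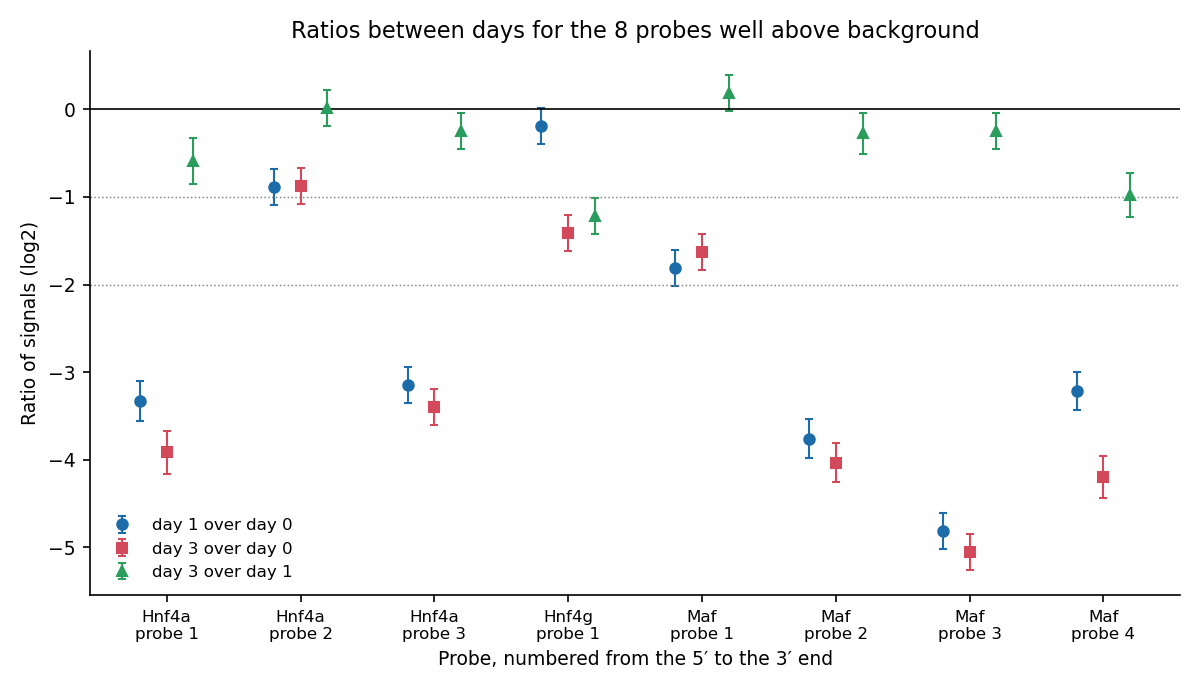
Log2 ratio of signals between days for the 8 probes well above background, with bars for the scanner software's error of the 2 spots. The day 1 over day 0 and day 3 over day 0 points lie side by side at each Hnf4a and Maf probe, from -0.87 at Hnf4a probe 2 to -5.06 at Maf probe 3, whereas Hnf4g probe 1 lies near 0 for day 1 over day 0 and at -1.41 for day 3 over day 0.

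Such disagreement between probes was set against that of other genes with as many probes. The disagreement of the Hnf4a probes was known beforehand and is why each probe is shown, so the rank of Hnf4a only describes it. The other genes were not matched for the size of their ratios. On day 1 against day 0, the highest and lowest Hnf4a ratios were 2.44 apart on the log2 scale, against a median of 0.85 over 1729 genes with 3 probes above background, and 96.4% of those genes had a smaller range. On day 3 against day 0 the range was 3.04, against a median of 1.07, larger than in 95.5% of them. The Maf ratios were 3.00 apart for day 1 over day 0, against a median of 1.103 over 495 genes with 4 probes, and 3.43 apart for day 3 over day 0, against 1.41; 96.6% and 96.8% of those genes had a smaller range. Between days 1 and 3 the ranges of both genes were unremarkable, 0.61 for Hnf4a and 1.16 for Maf, larger than in 52.9% and 73.3% of such genes. Over 4396 transcripts with probes at least 500 bases apart, the probe nearer the 3′ end gave the lower ratio by a median of 0.18 on the log2 scale for day 1 over day 0 (difference -0.18, quartiles -0.74 and 0.18), and -0.28 for day 3 over day 0. The part of this shift, or of different transcripts, in the Hnf4a and Maf probes was not tested.

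**Figure D3:**
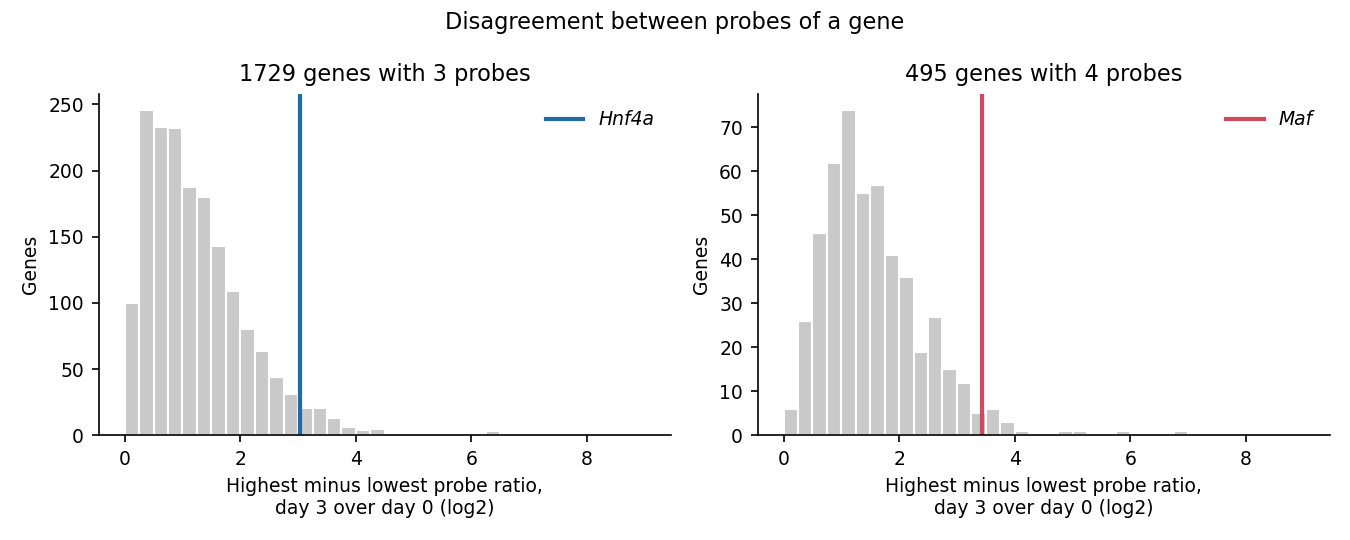
Histograms of the highest minus the lowest probe ratio of a gene, day 3 over day 0 in log2 units, for 1729 genes with 3 probes and 495 genes with 4 probes above background. Lines mark Hnf4a at 3.04 and Maf at 3.43, both in the right tail of genes not matched for the size of their ratios.

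Other liver-enriched factors, a list of 5 genes of the FOXA and Onecut families, were set beside Hnf4a. At the probe used for each gene, 0 of 5 were at least 4-fold lower on day 1 than on day 0, beside 5.27% of all genes. At least 4-fold higher were 0, beside 3.41%. None was even 2-fold lower on either day, as 15.6% of all genes were on day 1 and 21.7% on day 3. The list's median ratio was -0.01 for day 1 over day 0 and 1.11 for day 3 over day 0, beside -0.11 and -0.10 over all genes.

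The FOXA and Onecut genes had signals far below the 75th percentile. Foxa2, a pioneer factor of endoderm, had 4.52%, 3.69% and 20.4% on days 0, 1 and 3, and was 4.52-fold higher on day 3 than on day 0 (2.18). At the probes used it was the only gene of the list past 4-fold on day 3. Of all genes, 5.34% were that much higher and 8.12% that much lower. Foxa1 was also brightest on day 3 (1.51 for day 3 over day 0), and Foxa3 had ratios of -0.11 and -0.28. At the probes used, Onecut2 was the only one at least 2-fold higher on day 1, as 13.6% of all genes were. On day 3 it was 1 of 3, as 16.6% of all genes were. The Onecut2 ratios were 1.22 for day 1 over day 0 and 1.11 for day 3 over day 0. Over its 3 probes they reached 2.88 and 2.32, past 4-fold in both comparisons. Onecut1 (HNF6) had 0.06 and -0.79 at the probe used, but a second probe gave 1.37 and 1.49.

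The other Maf genes on the list were 5, and 0 of 5 passed 4-fold in either comparison with day 0, in which 5.27% of all genes were lower and 3.41% higher on day 1, and 8.12% and 5.34% on day 3. Their median ratio was -0.36 for day 1 over day 0 and -0.22 for day 3 over day 0, and 2 were at least 2-fold lower on day 3 than on day 0, beside 21.7% of all genes.

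The small Maf genes were mostly flat, with clear signals on every array. Maff had ratios of -0.41 for day 1 over day 0 and -0.22 for day 3 over day 0, and Mafg had 0.51 and -0.05. Mafk was at -0.35 on day 1 and at -1.67 on day 3, both against day 0. Nrl, the large Maf protein of rod photoreceptors, was dim, at 4.66%, 3.63% and 1.77%, and Mafa, that of pancreatic beta cells, stayed between 1.16% and 2.38% and was not well above background on day 1.

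**Figure D4:**
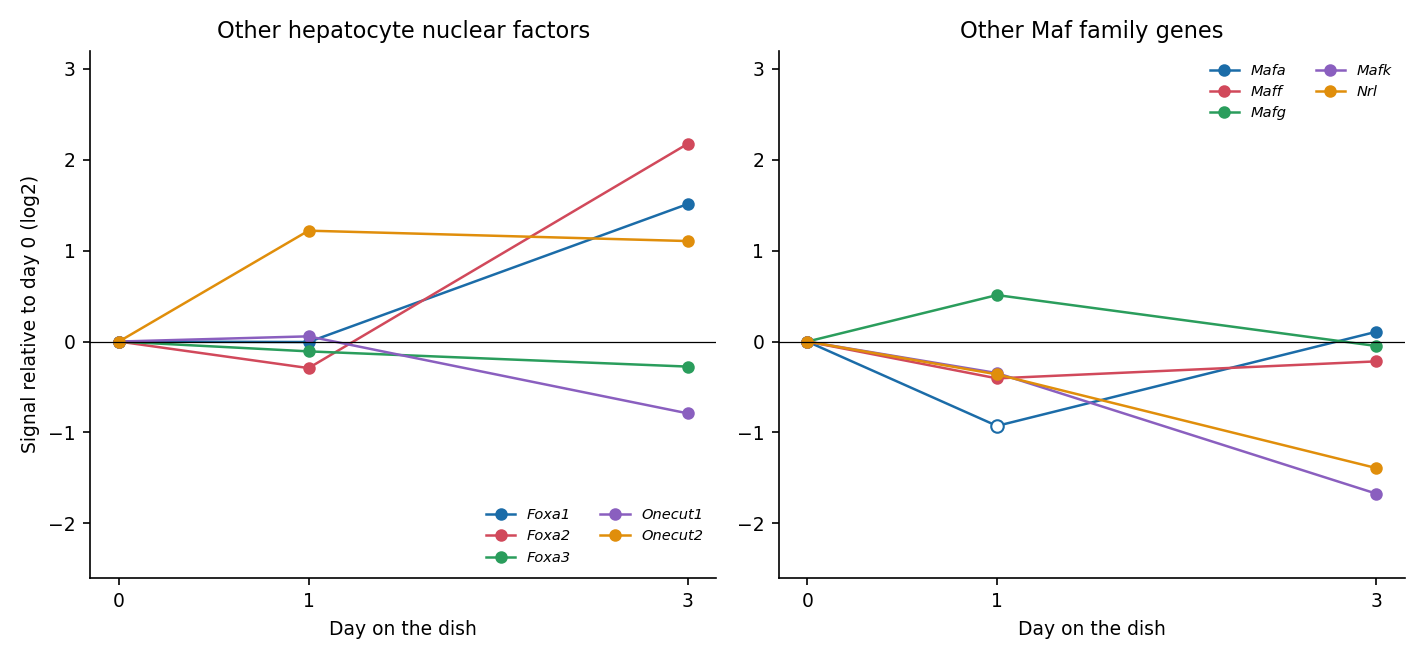
Signal relative to day 0, on a log2 axis, against the day on the dish for 5 FOXA and Onecut genes (left) and 5 other Maf family genes (right), with 1 line per gene for the probe that stands for it and an open point where it was not well above background. Foxa2 lies highest on day 3, at 2.18, and Mafk lowest, at -1.67, and no gene reaches the -3.15 of Hnf4a probe 3 on day 1. Hnf4a probe 2 had -0.89 on day 1. Maf probe 1, which stands for Maf, had -1.81 on day 1 and -1.63 on day 3, near the day 3 value of Mafk.

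The partners with which small Maf proteins form dimers, 6 genes, held 0 past 4-fold in either comparison with day 0, where 5.27% of all genes were lower and 3.41% higher on day 1, and 8.12% and 5.34% on day 3. Scaled to reference genes, 1 was 4-fold lower on day 1. The medians were -0.31 for day 1 and -0.59 for day 3. Nfe2l2 (Nrf2), the regulator of antioxidant genes, had 0.33 for day 1 over day 0 and 0.11 for day 3 over day 0, although another of its 3 probes gave -2.68 for day 3 over day 0. Bach2, a repressor known from B cells, had -1.59 and -0.90, and Bach1 0.22 and -0.79. Nfe2l3 had -0.35 and -0.66, Nfe2 -1.36 and -0.51, and Nfe2l1 -0.28 and -0.18.

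Co-regulators and antagonists of Hnf4 came to 16 genes. On day 1, 2 of 15 with a signal were at least 4-fold under day 0, beside 5.27% of all genes, and 0 were 2-fold higher, beside 13.6%, at a median of -0.69. This count was 1 with median centring, spike-ins, normexp background correction or the mean of probes. On day 3 it was 1 of 16, beside 8.12%, with 7 at least 2-fold lower, beside 21.7%, at a median of -0.75. The lowest was Ppargc1a (PGC-1alpha), the coactivator of Hnf4a in gluconeogenesis, with 1655%, 214% and 125% on days 0, 1 and 3. It was 7.74-fold lower on day 1 than on day 0 (-2.95) and 13.2-fold lower on day 3 than on day 0 (-3.73), and its other probe gave -3.40 for day 3 over day 0. Its relative Ppargc1b had -1.17 and -1.33, and the coactivator Ncoa1 -0.63 and -1.72. Among the repressors, Nr0b2 (SHP) had -1.75 and -1.77, and Nr2f2 (COUP-TFII), which competes for the same sites, -2.01 and -1.61, with another probe of it at 0.07 for day 3 over day 0. Snai1, a repressor of Hnf4a known from epithelial-mesenchymal transition, was dim and lower on both days, at -1.09 and -1.58. At the probes used no member was 2-fold higher, the highest being the coactivator Ncoa3 at 0.52 for day 3 over day 0. Over the 3 probes of Med1, however, the ratios reached 1.42 for day 1 over day 0 and 1.05 for day 3 over day 0.

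Genes known from liver as targets of Hnf4a were read next. Of 25 listed, 23 have a value here. On day 1, 8 of 22 were at least 4-fold under day 0 (median -1.37), and on day 3 10 of 23 (median -1.29), beside 5.27% and 8.12% of all genes, and 0 were at least 4-fold higher. G6pc, the last enzyme of glucose release, had 4722%, 92.8% and 21.9% on days 0, 1 and 3, that is -5.67 for day 1 over day 0 and -7.75 for day 3 over day 0. Fabp1, the liver fatty acid binding protein, had 436% and 18.1% on days 0 and 1, and was not well above background on day 3, at least 691-fold lower than on day 0. The transthyretin gene Ttr was likewise at least 148-fold lower on day 3 than on day 0. Both are bounds, since those day 3 spots were not well above background.

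Lipid carriers were among the low genes as well. Apom, an apolipoprotein made by tubule cells, had -2.67 for day 1 over day 0 and -5.65 for day 3 over day 0. Apob had -3.32 and -4.70, but its 5 probes ranged from -5.30 to -1.34 for day 3 over day 0. Ppara, the receptor that drives fatty acid oxidation, had -3.27 and -4.23. Other members had ratios closer to 0, such as Cyp7a1, the first enzyme of bile acid synthesis (-0.08 and -0.27), and the clotting factor gene F9 (-0.35 and -0.47).

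The solute carriers and endocytic receptors of the proximal tubule linked to Hnf4a were lower nearly throughout. On day 1, 12 of 15 were at least 4-fold under day 0, beside 5.27% of all genes, the median ratio being -2.87. On day 3 it was 14 of 15, beside 8.12%, and the median was -4.77. The sodium phosphate cotransporter Slc34a1 had 11069%, 1349% and 26.4% on days 0, 1 and 3, that is -3.04 for day 1 over day 0 and -8.71 for day 3 over day 0. Its relative Slc34a3 had -2.87 and -8.90. The organic anion transporter Slc22a6 had -3.29 and -6.78, Slc22a7 -3.51 and -6.25, and Slc22a8 -2.65 and -5.59. The glucose transporter Slc5a2 (SGLT2) had -2.03 and -5.86. The member short of 4-fold on day 3 was the urate transporter Slc22a12, at -1.35. Markers of other segments were also mostly lower against day 0. Of 6 distal and collecting markers, 5 were at least 4-fold lower on day 1 and 6 on day 3. Their medians were -2.997 and -5.264. Of 4 loop of Henle markers, 2 and 3 were that much lower, with medians of -2.501 and -4.597. The 5 intercalated cell markers had medians of smaller size, -0.881 and -2.473. Ratios of this size were thus not confined to the carriers.

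Between days 1 and 3 the carriers were lower again, with a median below the ratio of each measured member probe. In this comparison 8 of the 15 were at least 4-fold lower, beside 1.36% of all genes, and the median was -2.40. The 3 Hnf4a probes lay between -0.59 and 0.02, the 4 Maf probes between -0.98 and 0.18, and Hnf4g probe 1 at -1.22. Marker medians here were -2.77 for the proximal tubule and -2.89 for intercalated cells, below that of the carriers. They were -1.64 for the loop of Henle, -1.31 for distal and collecting segments and 0.52 for podocytes. A further drop was thus not confined to the carriers. All these values come from the same pair of arrays. With 1 array per day, an order in time between the factors and the carriers was not tested. The 14 markers of the proximal tubule, some of them also on this list, were all above background on each day and 12 of them at least 4-fold lower on day 1 than on day 0, beside 5.27% of all genes. Their summed level was 1551, 272 and 30.1 times the 75th percentile on days 0, 1 and 3, so the markers of the labelled cell type were present on every array, lowest on day 3. Their part in the member values was not tested.

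Brush border genes, 10 in number, were lower to a smaller degree. On day 1, 4 of 10 were at least 4-fold under day 0, beside 5.27% of all genes, the median being -1.91. On day 3 it was 8 of 10, beside 8.12%, the median being -2.58. The day 1 count was 7 when scaled to reference genes, and the day 3 count was 5 when scaled to spike-ins. Peptidase genes had the lowest ratios of the list. Anpep (aminopeptidase N) had -3.61 and -5.48, and Mep1a (meprin alpha) -3.14 and -5.11. Mep1b was at least 320-fold lower on day 3 than on day 0 at the probe used, while its other probe gave -1.33. Ggt1, the gamma-glutamyl transferase gene, had -2.0 and -2.45. The protocadherins that tie microvilli together, Cdhr5 and Cdhr2, had -2.98 and -2.72 for day 3 over day 0, with a second probe of each at -0.47 and -0.31. The actin bundling protein gene Vil1 was nearly flat on day 1 (-0.11) and lower on day 3 (-2.33).

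Genes known as Maf targets, chiefly lens crystallins and T cell cytokines, were read beside it. Of 9 with a signal, 0 were at least 4-fold lower on day 1 than on day 0 and 1 on day 3, beside 5.27% and 8.12% of all genes, and the list's medians were -0.18 and -0.33. That 1 was Gpx3, the plasma glutathione peroxidase made by the proximal tubule, at -1.34 for day 1 over day 0 and -3.42 for day 3 over day 0. Cryab, a crystallin that is also a heat shock protein, was higher: it had 592%, 7589% and 10458% on days 0, 1 and 3, or 3.68 and 4.14, though its second probe gave 0.84 for day 3 over day 0. The other crystallins were dim, with Crybb1 at 0.07 and -1.24, Cryba4 at -0.80 and -0.92, Crygd at -0.32 and -0.90, and Cryaa at -0.18 and 0.53.

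Cells other than tubule cells also use Maf, and their markers were read beside it. The 8 macrophage markers were all above background on each day, with a summed level of 13.8, 9.44 and 15.3 times the 75th percentile on days 0, 1 and 3. The 6 T cell markers summed to 1.21, 0.90 and 1.14, and the 7 endothelial markers to 31.4, 17.1 and 6.83. Lyz2 made up most of the macrophage sum, and single markers went both ways on day 3 against day 0, with Cd68 at 2.34, Ptprc at -1.59, Lck at 1.83 and Cd3e at -0.76. Segments other than the proximal tubule were present on day 0 and lower later, with the loop of Henle at 425, 96.2 and 20.1, the distal and collecting segments at 89.0, 8.48 and 3.00 and the intercalated cells at 16.5, 5.21 and 0.83. The 5 podocyte markers, all above background on each day, summed to 11.9, 2.96 and 4.18. Fibroblast markers summed to 3.30, 3.80 and 2.97, mostly from Pdgfrb on days 0 and 1. On day 3 against day 0, 2 of these 6 were at least 2-fold higher, beside 16.6% of all genes. At least 2-fold lower were 0, beside 21.7%. The higher ones were Col1a1 at 2.83 and Col3a1 at 1.61, though other probes of them gave -0.21 and 0.19. Pvalb, a distal and collecting marker, was not well above background on day 3, while the other markers of these lists were on each day. The part of any of these cells in the Hnf4a and Maf values was not tested.

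**Figure D5:**
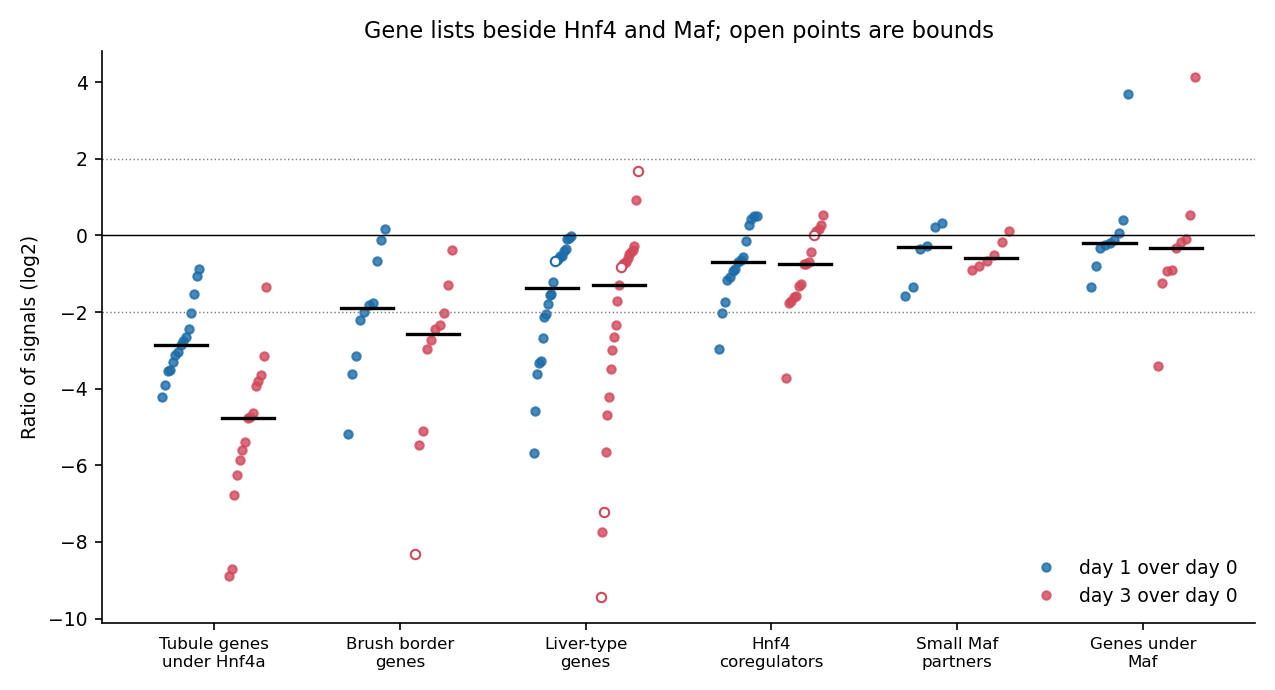
Log2 ratios of the members of each gene list beside Hnf4 and Maf, day 1 over day 0 and day 3 over day 0, with 1 point per gene, open where the value is a bound, and a line at each median. The proximal tubule carriers have the lowest medians, -2.87 and -4.77, the medians of the Maf partners and targets lie between -0.59 and -0.18, and the highest and lowest Maf targets on day 3 are Cryab at 4.14 and Gpx3 at -3.42.

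Promoters were searched for the motifs of the members. RefSeq's table of promoters, on GRCm38.p6, gives 250 bases before and 50 after each start, for 32851 promoters, and holds 2 windows for Hnf4a and none for Hnf4g or Maf. Over all genes with a promoter, 5.22% of 14904 were at least 4-fold lower on day 1 than on day 0, with a median of -0.11, and 8.09% of 15068 on day 3 than on day 0, with a median of -0.10.

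CAAAGTCCA, the core known for Hnf4a, was in 156 promoters (0.475%), and 13 of 85 such genes (15.3%) were at least 4-fold lower on day 1 than on day 0, with a median of -0.41, and 16 of 89 (17.98%) on day 3 than on day 0, with a median of -0.27. The direct repeat, 2 copies of AGGTCA with any 1 base between them, was in 13 promoters and 10 measured genes, of which 1 was at least 4-fold lower on day 1 and 2 on day 3. The short Maf motif TGCTGAC was in 1535 promoters (4.67%), with 54 of 706 genes (7.65%) at least 4-fold lower on day 1 than on day 0 and 88 of 713 (12.3%) on day 3 than on day 0. The full palindromic Maf element, which contains the short motif, was in 1 promoter and in 0 measured genes. All were searched on both strands, and neither Hnf4a window holds any of these 4. A match of letters is a description and no measured binding site.

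The genes whose course over the 3 arrays lay nearest to each member were found by the distance between log2 levels, after taking off each gene's own mean, among 17237 genes above background on all 3 arrays. For Hnf4a probe 3 these were Rnf152 (distance 0.05), Gltpd2 (0.06), Lzts3 (0.07), Tppp (0.09) and Acox3 (0.09), and 157 genes lay within 0.5. For Hnf4g probe 1 they were Olfr49 and Tmprss7 (0.02 each), Olfr967 and Birc7 (0.03 each) and Tcl1b4 (0.04), with 1159 genes within 0.5. For Maf probe 1 they were Fign (0.02) and Rassf3, Oas1d, Trpc1 and Tcf21 (0.03 each), with 806 genes within 0.5. Likeness over 3 arrays is a weak measure, as the number of genes within the same distance shows, and Maf probe 1, which stands for Maf here by its highest mean signal, was the Maf probe with the smallest ratios.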

How the data were processed

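Total RNA was labelled with Cy3 after linear amplification and hybridised to Agilent 1-colour mouse arrays, per the labels' protocols. Feature Extraction measured the spots, version 10.5.1.1 per the file headers and 9.1 per the submitters' processing notes. The deposited processed signal is an intensity, background subtracted and not normalized between arrays, and the deposited flags, of other kind (0 or 1), mark background, outlier and control spots. A multiplicative trend correction was used on days 0 and 1 and not on day 3, per the file headers. The authors' value table is a ratio, the processed signal over the 75th percentile; all 43379 values per array lay within 0.001 of it, with column medians of 0.187, 0.162 and 0.151.

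Each of the 3 arrays, all on 1 slide, held 45018 spots (1639 controls). The log2 intensity deposited by the authors was taken minus the log2 75th percentile (1184, 1509 and 1515 on days 0, 1 and 3). Outlier spots (94, 102 and 85) and 17 probes with no other spot were left out. Probes were named through RefSeq by accession (26888), symbol (5025) or synonym (832), 8429 staying unnamed. A gene's probe was that with the highest mean. Ratios took probes well above background on at least 1 array; "at least" marks a bound against the lowest signal well above background (0.845%, 0.429% and 0.262% of the percentile) or the spot's own signal if higher. Genes above background numbered 18730, 18603 and 18867. Precision is limited by having 3 arrays. Named genes were all members and all listed FOXA, Onecut and other Maf genes. Added to these were up to 6 genes per list with the largest day 3 over day 0 ratio, and the 5 nearest courses. Others named (Cyp7a1, F9, Vil1, Slc22a12, Ncoa3, Med1, Lyz2, Cd68, Ptprc, Lck, Cd3e, Pdgfrb, Col1a1 and Col3a1) were chosen after their values were seen. The members and lists were chosen with earlier results of these data known, and some list genes, left out of the lists, are not reported here. Fixed folds of 2 and 4 were used; scripts were tested on simulated data. Alternatives were other scalings, normexp background correction (limma 3.58.1), quantile normalization, other filters, the mean of a gene's probes and the value table. Python 3.11.15 and R 4.3.3 were used.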

Additional observations from a re-analysis of the deposited data

How the results depend on the processing

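No paired analysis was possible because there is 1 array per day. For day 1 over day 0, centring on array medians gave -2.94 for Hnf4a, 0.016 for Hnf4g and -1.60 for Maf, and scaling to reference genes -3.58, -0.62 and -2.24. For day 3 over day 0, medians gave -3.09, -1.10 and -1.32, spike-ins -2.92, -0.93 and -1.15, and quantile normalization -1.15 for Hnf4g. The mean of probes gave -2.45 for Hnf4a and -3.40 for Maf on day 1 over day 0, and -2.73 and -3.73 on day 3 over day 0. Day 3 over day 1 was 2-fold lower at 0 of the member probes with spike-ins and with reference genes, against 1. With normexp, the ratios of 3 probes that were dim on days 1 and 3 became smaller in size. For day 1 and day 3 over day 0, Hnf4a probe 1 had -2.24 and -2.55. Maf probe 2 had -2.84 and -3.09, and Maf probe 4 had -2.39 and -2.90. The other measured member probes moved less, so the size at the dim probes depends on the background correction. Day 3 over day 1 ratios near 0 turned sign at Hnf4a probe 2 and Maf probe 1 (normexp), Hnf4a probe 3 and Maf probe 3 (spike-ins, reference genes) and Maf probe 2 (spike-ins).

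Relative to the 75th percentile, the median of all spots lay at -0.21 on day 1 and -0.31 on day 3 against day 0, spike-ins at -0.17 and -0.48, and reference genes at 0.43 and 0.17. All genes 4-fold lower and higher on day 1 than on day 0 numbered 997 and 644, or 1552 and 394 with reference genes; the higher share of these was 39.2%, 51.1% with medians and 20.2% with reference genes. For day 3 over day 0 they were 1552 and 1020, or 972 and 1736 with spike-ins, with shares of 39.7%, and 55.5% with medians and 64.1% with spike-ins. For day 3 over day 1, 258 lower became 164 with spike-ins, 170 with reference genes and 133 with normexp, and 327 higher became 212 with normexp; the higher share was 55.9%, and 74.8% and 72.7% with spike-ins and reference genes. Foxa2 was under 4-fold with normexp, and Cryab under 4-fold on day 1 as a mean of probes. Counted over pairs of a main result and an alternative setting, 111 stayed and 27 moved, so 1 result can appear under both. Cultures were not repeated, so what another culture would give is not known from these arrays.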
